A study of Homo sapiens with 6 samples.

Results

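Mitochondrial ribosomal protein genes were followed in ME-1, an established human acute myeloid leukaemia line whose inv(16) rearrangement joins CBFB to MYH11. The cells had been kept for 6 h in 1 µM AI-10-49, an inhibitor aimed at the resulting fusion protein, or in the solvent DMSO, with 3 independent experiments of each treatment. Every library carries the same rearrangement, and no other line or other time was compared. The genes were taken by symbol: rows of the deposited FPKM table (fragment counts the authors scaled by transcript length and library size) that name a single gene starting with MRPL or MRPS. This gave 39 of 6339 rows, 29 MRPL and 10 MRPS genes, all of which passed the filter of 1 FPKM in at least 1 group. RefSeq lists 77 protein-coding symbols of this form, and the other genes were not analysed here.

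The mitochondrial ribosome (mitoribosome) sits in the matrix and translates the few messages that mitochondrial DNA encodes, all of them core subunits of the respiratory chain and the ATP synthase. Its rRNAs come from mitochondrial DNA, whereas its proteins are made from nuclear genes, translated in the cytosol and imported. The large subunit (mainly MRPL proteins) joins amino acids and the small subunit (mainly MRPS proteins) decodes the mRNA. Many of the proteins have a bacterial counterpart, and others were added in the mitochondrial lineage. Some myeloid leukaemia cells are reported to rely on mitochondrial translation, which was not examined here.

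The deposited table is a selection of rows. Nearly all of them differ between the treatments, so a count of genes past the threshold describes the table and not the transcriptome. AI-10-49 replicate 2 stood apart: its highest value over all rows was 159 FPKM, against 1843 and 1877 FPKM in the AI-10-49 replicates 1 and 3, and it was the lowest of the 3 AI-10-49 libraries in 34 of the 39 genes (44.2% of all rows). In the 13 members that averaged at least 50 FPKM in AI-10-49 replicates 1 and 3, replicate 2 read 50.5% to 75.5% of that average. DMSO replicate 3 was the highest DMSO library in 36 of the 39 genes (48.4% of all rows). Each result below is therefore given with and without AI-10-49 replicate 2 where its value moved by over 1.5 times or its call changed. Of 10 markers of myeloid leukaemia cells 7 had a row, KIT (39.9 ± 3.21 FPKM with AI-10-49 and 82.8 ± 2.71 with DMSO) and CEBPA (42.1 ± 5.52 and 128 ± 10.99) among them (SD, n = 3 each). ELANE (1.14 ± 0.24 and 2.05 ± 0.23 FPKM) and PRTN3 (0.38 ± 0.17 and 1.06 ± 0.27 FPKM) were low, and MPO, CD34 and CSF1R had no row. The myeloid markers summed to 126 to 151 FPKM with AI-10-49 and 279 to 307 FPKM with DMSO. Markers of other cells with a row were 3 of 4 for T or NK cells, with CD3D (16.4 ± 0.46 and 32.2 ± 0.95 FPKM) holding most of the sum and CD7 higher with AI-10-49 (2.89 ± 0.06 and 1.83 ± 0.49 FPKM), 2 of 4 for B cells and 1 of 4 for erythroid cells. Summed over the list, T or NK markers read 19.7 to 20.1 FPKM with AI-10-49 and 34.5 to 36.2 FPKM with DMSO, B markers 8.72 to 10.6 and 24.8 to 29.96 FPKM, and KLF1, the erythroid marker, 3.28 to 4.004 and 8.76 to 9.60 FPKM. Their part in the results was not tested.

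After 6 h of AI-10-49 the mitoribosomal genes went both ways. With a threshold of 0.05 on the limma adjusted p, 24 of the 39 fell, 12 rose and 3 did not pass. Over all 6230 rows tested, 49.1% fell, 46.2% rose and 95.3% passed in either direction, so the share of members past the threshold lay near that of the table. MRPL17 fell most and MRPS31 rose most. The median log2 fold change (of FPKM + 1, AI-10-49 minus DMSO) was -0.46 for the 39 genes and -0.28 for all tested rows. Without AI-10-49 replicate 2 the medians were -0.31 and -0.21, 24 members fell and 13 rose, and 36 members were called in the same direction as before (97.4% of all rows passed, 51.0% lower and 46.4% higher). Quantile normalization moved the median of all rows to -0.06 and that of the members to -0.25, and 14 members moved by over 1.5 times or crossed the threshold under it. In bulk RNA, less RNA per cell and fewer cells of a type cannot be told apart.

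**Figure D1:**
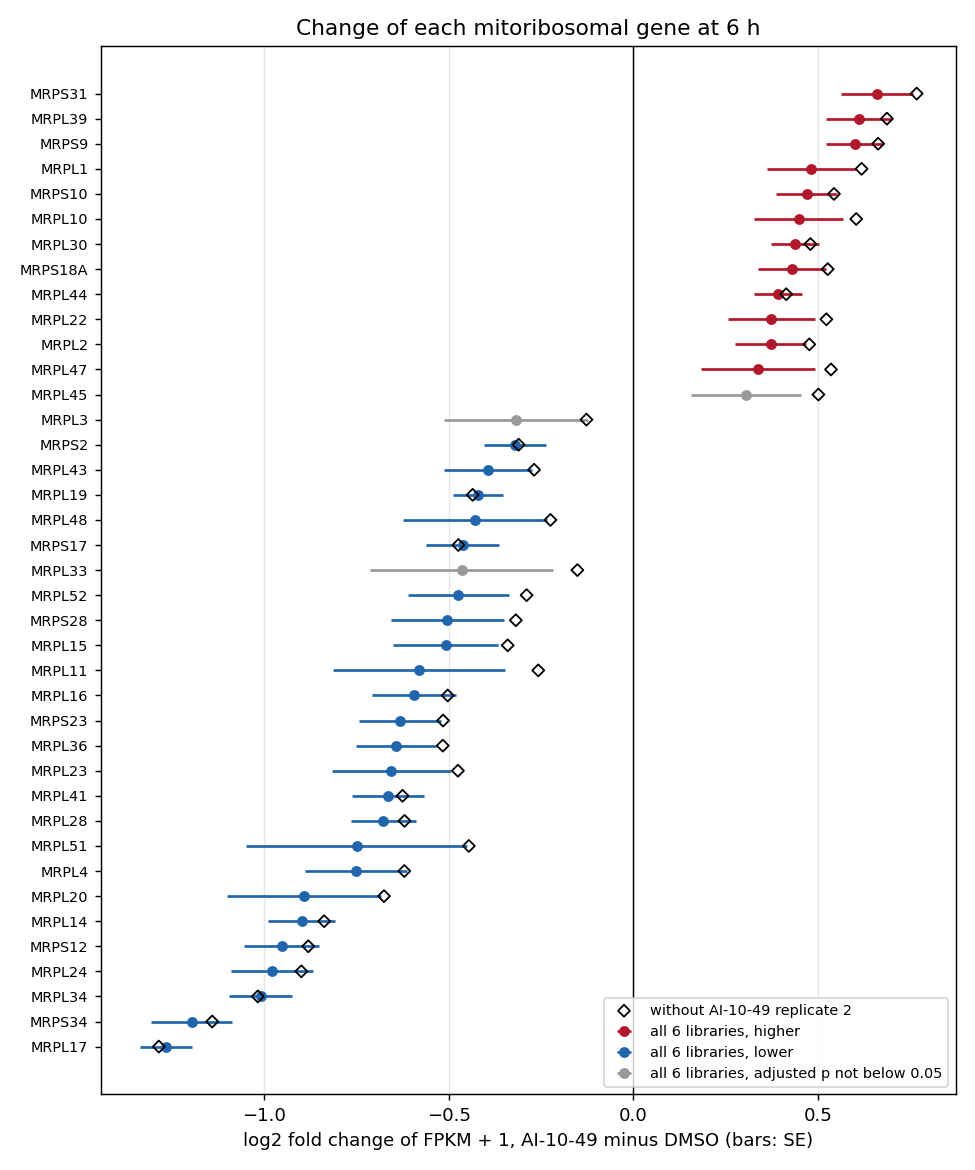
Log2 fold change (AI-10-49 minus DMSO, horizontal axis) of each of the 39 genes with all 6 libraries (filled points, bars SE; red higher, blue lower, grey not past the adjusted p of 0.05) and without AI-10-49 replicate 2 (open diamonds). MRPL17 (-1.27) stands at the low end and MRPS31 (0.66) at the high end, and no gene changes sign when replicate 2 is left out.

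The large and small subunits did not part by direction. Among MRPL genes 18 fell, 8 rose and 3 did not pass, with a median log2 fold change of -0.47. Among MRPS genes 6 fell and 4 rose, with a median of -0.39. Without AI-10-49 replicate 2 the medians were -0.29 and -0.31. MRPS18A, an S18 relative that lies in the large subunit in spite of its symbol, rose. Counted by place in the particle, the large subunit had 18 genes that fell and 9 that rose of 30, and the small subunit 6 and 3 of 9. Genes with a bacterial counterpart fell in 17 and rose in 9 of 28, and mitochondria-specific genes fell in 7 and rose in 3 of 11. Summed FPKM of the MRPL genes were 1413, 991 and 1428 in the AI-10-49 libraries (replicates 1 to 3), against 1627, 1600 and 1848 in the DMSO libraries. Those of the MRPS genes were 352, 288 and 346 FPKM with AI-10-49, against 386, 384 and 443 FPKM with DMSO. In both sums every AI-10-49 library lay below every DMSO library, replicate 2 being the lowest.

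MRPL17, the counterpart of bacterial L17, had 7.62, 8.43 and 8.53 FPKM with AI-10-49, against 19.9, 20.7 and 22.7 FPKM with DMSO. The groups lay far apart, and AI-10-49 replicate 2 read like the other AI-10-49 libraries. The mean with AI-10-49 was 38.8% of that with DMSO, a log2 fold change of -1.27 ± 0.07 (SE, limma adjusted p = 5.68e-09). Permuting the treatment labels of its FPKM exactly, on both sides, gave p = 0.1, and no smaller p is possible with 3 libraries a side. MRPS34, a mitochondria-specific protein of the small subunit whose loss in patients causes a Leigh-type respiratory chain disease, had 36.0, 31.8 and 35.6 FPKM with AI-10-49, against 74.1, 77.4 and 89.5 FPKM with DMSO. Its mean was 42.9% of that with DMSO (log2 fold change -1.20 ± 0.11 SE, adjusted p = 4.93e-07). MRPL34 had 26.4, 26.4 and 25.6 FPKM with AI-10-49, against 51.7, 50.2 and 59.4 FPKM with DMSO, and so stood at 48.6% (log2 fold change -1.01 ± 0.09 SE). All 3 falls were close to the same size without AI-10-49 replicate 2, at -1.28, -1.14 and -1.02.

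MRPL24, whose bacterial counterpart starts large subunit assembly, had 42.03, 35.7 and 42.7 FPKM with AI-10-49, against 78.2, 79.1 and 82.3 FPKM with DMSO. MRPS12, the counterpart of S12 in the decoding centre, had 29.9, 25.1 and 28.8 FPKM with AI-10-49, against 50.1, 52.7 and 62.5 FPKM with DMSO. MRPL14, which binds the assembly factor MALSU1, had 25.3, 22.5 and 26.2 FPKM with AI-10-49, against 44.2, 44.0 and 52.6 FPKM with DMSO. In each of these the AI-10-49 libraries lay below all DMSO libraries, and the log2 fold changes were -0.98, -0.95 and -0.90 (SE 0.11, 0.10 and 0.09). MRPL20, whose counterpart acts early in bacterial assembly, had 78.5, 49.3 and 77.2 FPKM with AI-10-49, against 120.0, 116 and 140.0 FPKM with DMSO. MRPL4 had 54.6, 38.7 and 47.8 FPKM with AI-10-49, against 77.9, 74.3 and 85.5 FPKM with DMSO. The groups did not overlap in either, and replicate 2 was the lowest AI-10-49 library (log2 fold changes -0.89 ± 0.21 and -0.75 ± 0.14 SE, or -0.68 and -0.62 without it). Under quantile normalization MRPL20 stood at -0.46 and MRPL4 at -0.47, and both passed.

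The remaining 16 genes that fell changed by -0.75 to -0.32 on the log2 scale. MRPL51 was the most abundant member in both treatments, with 118, 63.5 and 123 FPKM with AI-10-49 against 153, 157 and 184 FPKM with DMSO. Its log2 fold change was -0.75 ± 0.30 (SE, adjusted p = 0.0288), or -0.45 without AI-10-49 replicate 2 (adjusted p = 0.000433) and -0.24 under quantile normalization, where it passed (adjusted p = 0.00693). It did not pass without DMSO replicate 1, 2 or 3 (-0.80, -0.78 and -0.67, adjusted p = 0.0732, 0.0751 and 0.114). MRPL28 (-0.68), MRPL41 (-0.66), MRPL23 (-0.66), MRPL36 (-0.64), MRPS23 (-0.63), MRPL16 (-0.59), MRPL15 (-0.51), MRPS17 (-0.46), MRPL19 (-0.42), MRPL43 (-0.39) and MRPS2 (-0.32) fell in every fit that left out a single library. These 11 genes averaged 8.22 to 54.8 FPKM with AI-10-49 and 11.3 to 85.7 FPKM with DMSO, and no AI-10-49 library reached the DMSO range in any of them. MRPS28 (-0.50) and MRPL52 (-0.47) did so too, with -0.32 and -0.29 without AI-10-49 replicate 2. Quantile normalization gave smaller falls for MRPL23 (-0.34), MRPL15 (-0.29), MRPS28 (-0.25) and MRPL43 (-0.19), which all passed. MRPL11, at the base of the stalk that recruits translation factors, had 80.3, 40.95 and 81.8 FPKM with AI-10-49, against 92.9, 90.2 and 109 FPKM with DMSO. It changed by -0.58 ± 0.23 (SE, adjusted p = 0.0298). The change was -0.26 without AI-10-49 replicate 2 (adjusted p = 0.00992), and did not pass without DMSO replicate 1 or 3 (-0.61 and -0.50, adjusted p = 0.0514 and 0.1003). MRPL48 (-0.43, adjusted p = 0.049) was at -0.22 without AI-10-49 replicate 2 (adjusted p = 0.0108). It did not pass without DMSO replicate 1, 2 or 3 (-0.44, -0.48 and -0.37, adjusted p = 0.112, 0.0841 and 0.159), and under quantile normalization it stood at 0.020.

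**Figure D2:**
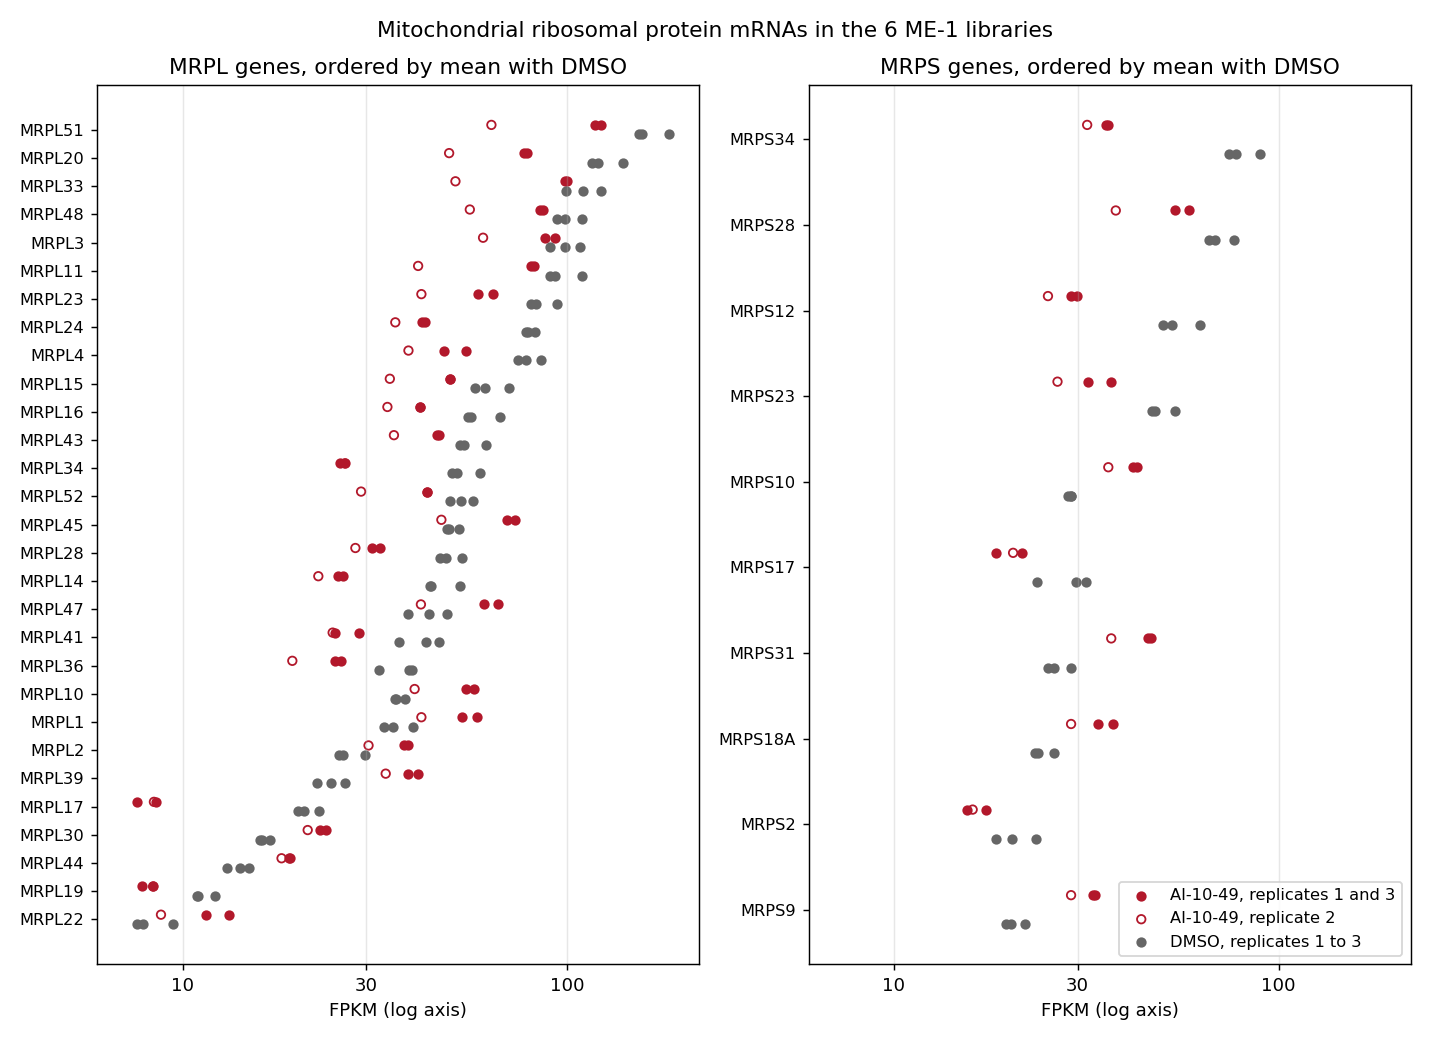
FPKM (log axis) of the 29 MRPL and 10 MRPS genes in each library, AI-10-49 in red (replicate 2 open) and DMSO in grey, genes ordered by their mean with DMSO. Among abundant genes such as MRPL51 and MRPL20 the open red point lies far left of the other red points, while in MRPL17 (8.43 against 7.62 and 8.53 FPKM) it lies among them.

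Of the 12 genes that rose, 4 encode MRPS and 8 MRPL proteins. MRPS31, a mitochondria-specific protein of the small subunit, had 46.5, 36.7 and 45.7 FPKM with AI-10-49, against 26.0, 25.2 and 28.8 FPKM with DMSO. Its mean was 161% of that with DMSO (log2 fold change 0.66 ± 0.10 SE, adjusted p = 3.63e-05). MRPL39, a mitochondria-specific protein of the large subunit, had 38.6, 33.7 and 40.9 FPKM with AI-10-49, against 24.4, 22.3 and 26.4 FPKM with DMSO (log2 fold change 0.61 ± 0.09 SE). MRPS9, the counterpart of S9, had 33.2, 28.9 and 32.9 FPKM with AI-10-49, against 20.1, 19.6 and 21.9 FPKM with DMSO (0.60 ± 0.08 SE). In these 3 genes even the lowest AI-10-49 library, replicate 2, lay above every DMSO library, and without it the log2 fold changes were 0.77, 0.69 and 0.66.

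MRPL1, whose bacterial counterpart forms the mobile stalk at the tRNA exit, had 53.3, 41.8 and 58.3 FPKM with AI-10-49, against 35.2, 33.4 and 39.6 FPKM with DMSO. MRPS10 had 42.8, 36.1 and 41.7 FPKM with AI-10-49, against 28.8, 28.4 and 28.8 FPKM with DMSO. MRPL10, which anchors MRPL12 in the factor-recruiting stalk, had 54.5, 40.1 and 57.2 FPKM with AI-10-49, against 35.6, 37.9 and 35.8 FPKM with DMSO. All 3 were apart between the groups (log2 fold changes 0.48 ± 0.12, 0.47 ± 0.08 and 0.45 ± 0.12 SE). The stalk genes MRPL10 and MRPL11 thus had opposite directions with all 6 libraries. Under quantile normalization MRPL11 did not pass (-0.23, adjusted p = 0.159). With AI-10-49 replicate 2 left out as well, it stood at -0.021 (adjusted p = 0.682). MRPL30 had 22.7, 21.2 and 23.5 FPKM with AI-10-49, against 16.1, 15.9 and 16.9 FPKM with DMSO. MRPS18A had 33.9, 28.9 and 37.2 FPKM with AI-10-49, against 23.3, 23.7 and 26.1 FPKM with DMSO. MRPL44, which carries a ribonuclease III-like fold and is mutated in infantile cardiomyopathy, had 18.9, 18.1 and 19.1 FPKM with AI-10-49, against 14.1, 13.0 and 14.9 FPKM with DMSO. These groups did not overlap, with log2 fold changes of 0.44 ± 0.07, 0.43 ± 0.09 and 0.39 ± 0.07 (SE).

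MRPL2, the counterpart of L2 near the peptidyl transferase centre, had 38.6, 30.4 and 37.6 FPKM with AI-10-49, against 26.2, 25.5 and 29.7 FPKM with DMSO. MRPL22 had 11.5, 8.79 and 13.2 FPKM with AI-10-49, against 7.62, 7.89 and 9.45 FPKM with DMSO. MRPL47, the counterpart of L29, had 60.7, 41.6 and 66.1 FPKM with AI-10-49, against 43.8, 38.4 and 48.6 FPKM with DMSO. In MRPL22 and MRPL47 the AI-10-49 replicate 2 lay inside the DMSO range. The log2 fold changes were 0.37 ± 0.10, 0.37 ± 0.12 and 0.34 ± 0.15 (SE; adjusted p = 0.00273, 0.00854 and 0.04997). MRPL22 reached 0.32 under quantile normalization and did not pass (adjusted p = 0.058). MRPL47 was at 0.54 without AI-10-49 replicate 2 (adjusted p = 0.000146) and at 0.54 under quantile normalization. Without DMSO replicate 1 or 2 it was at 0.34 and 0.25, and without AI-10-49 replicate 1 or 3 at 0.27 and 0.21, and it did not pass in any of these (adjusted p = 0.0884, 0.18, 0.149 and 0.19).

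The 3 genes that did not pass averaged 50.1 to 111 FPKM with DMSO, and each had overlapping groups. MRPL33 had 99.5, 51.2 and 98.6 FPKM with AI-10-49, against 110.0, 99.0 and 123 FPKM with DMSO. MRPL3, the counterpart of L3, had 87.6, 60.4 and 92.9 FPKM with AI-10-49, against 98.8, 90.2 and 108 FPKM with DMSO. MRPL45, which helps tether the particle to the inner membrane, had 69.6, 47.1 and 72.9 FPKM with AI-10-49, against 49.2, 48.6 and 52.4 FPKM with DMSO. In MRPL45, AI-10-49 replicates 1 and 3 lay above every DMSO library and replicate 2 below. MRPL33 gave a log2 fold change of -0.46 (adjusted p = 0.0868). It passed without AI-10-49 replicate 1 or 3 (-0.62 in both, adjusted p = 0.0433 and 0.0385), and stood at -0.15 without AI-10-49 replicate 2 (adjusted p = 0.102) and at -0.058 under quantile normalization (adjusted p = 0.588). MRPL3 gave -0.32 (adjusted p = 0.13), -0.13 without AI-10-49 replicate 2 (adjusted p = 0.134), and 0.14 under quantile normalization, where it passed upwards (adjusted p = 0.0346). MRPL45 gave 0.31 (adjusted p = 0.0656), 0.50 without AI-10-49 replicate 2, where it passed (adjusted p = 1.28e-05), 0.56 under quantile normalization, where it also passed (adjusted p = 3.58e-06), and 0.19 without AI-10-49 replicate 3 (adjusted p = 0.234). Counting MRPL22 and MRPL47 as well, 5 members had overlapping groups, and the groups of the other 34 did not overlap (96.2% of all tested rows did not).

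Genes that fell mostly had higher levels in DMSO cells than those that rose. The DMSO level also enters the fold change, so level and direction are not independent here. The 24 genes that fell had DMSO means of 11.3 to 165 FPKM (median 55.5), and the 12 that rose 8.32 to 43.6 FPKM (median 25.5). With AI-10-49 the medians were close, at 36.5 FPKM for those that fell and 36.7 FPKM for those that rose. Of the 12 members with at least 60 FPKM in DMSO cells 10 fell and none rose, while of the other tested rows at this level 65.7% fell and 3.08% rose. Of the 14 members at 30 to 60 FPKM 10 fell and 3 rose (72.3% and 25.7% of other rows), and of the 13 members under 30 FPKM 4 fell and 9 rose (41.1% and 58.1% of other rows). The counts that fell in these 3 ranges were the same without AI-10-49 replicate 2, while 4 members rose at 30 to 60 FPKM. Quantile normalization did change them. At 60 FPKM or more MRPL3 then passed upwards (0.14, adjusted p = 0.0346), and MRPL48 and MRPL11 did not pass (0.020 and -0.23, adjusted p = 0.681 and 0.159). MRPL45 passed upwards at 30 to 60 FPKM, and MRPL22 did not pass under 30 FPKM. The shares of other rows were taken with all 6 libraries only, replicate 2 included. MRPL17, MRPL19, MRPS2 and MRPS17 are the members under 30 FPKM that fell, so both directions occurred at low levels. In a single library the highest member stood 15.5, 7.57 and 14.6 times above the lowest with AI-10-49 (replicates 1 to 3), against 20.1, 19.9 and 19.5 times with DMSO. By mean FPKM, MRPS34 ranked 23 of 39 with AI-10-49 and 8 with DMSO, MRPL17 ranked 39 and 33, MRPL10 ranked 11 and 25, and MRPL47 ranked 8 and 22. FPKM are scaled to transcript length, so these are comparisons of level between genes.

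Genes that fell were also shorter on the genome. Their gene spans in RefSeq (lengths only, taken from another build than the deposited table's) ran from 677 bases in MRPL41 to 111543 bases in MRPS28, with a median of 5268. Those that rose ran from 5835 bases in MRPL2 to 89956 bases in MRPL1, with a median of 17619.5. Among the other tested rows the medians were 22127 bases for those that fell and 43872 bases for those that rose, with a span found for 98.1% of rows. MRPS28, MRPL48 (77260 bases) and MRPL23 (67613 bases) are long genes that fell. These are descriptions without a test, and level and span were not separated.

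**Figure D3:**
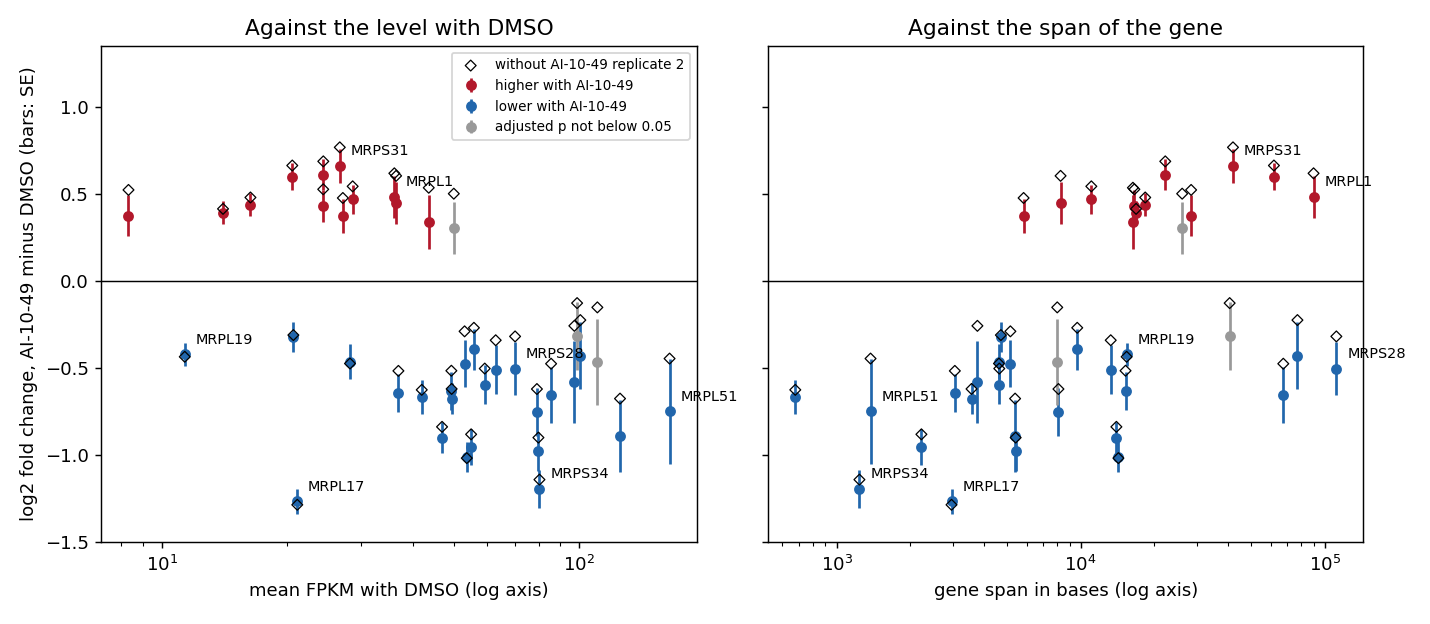
Log2 fold change (AI-10-49 minus DMSO; bars SE) of the 39 genes against their mean FPKM with DMSO (left, log axis) and their gene span (right, log axis), red higher, blue lower, grey not past the adjusted p of 0.05, open diamonds without AI-10-49 replicate 2. With all 6 libraries and no further normalization, no gene above 60 FPKM rose, and the 12 that rose span at least 5835 bases.

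Promoters were read for 34 of the 39 genes from the RefSeq table (build GRCh38.p14, 250 bases before to 50 after each start), without MRPL2, MRPL10, MRPL15, MRPL23 and MRPS28. The ETS core CCGGAAG, a sequence that the GABP factor binds, stood on either strand in 17 of 34 genes, against 22.2% of the 4294 other genes of the table with a promoter and 12.2% of all genes. It was in 10 of 21 genes that fell, 5 of 10 that rose and 2 of 3 that did not pass. The NRF1 motif (GCGCA and GCGC with any 1 base between) stood in 7 of 34 genes (20.6%, against 13.4% and 6.98%), of which 4 fell and 2 rose. The E-box CACGTG, which MYC and MAX bind, stood in 5 of 34 genes (14.7%, against 14.1% and 8.77%), of which 3 fell and 1 rose. A gene with several starts counted if any of its promoters held the motif, no motif here contains another, and a match is not a measured binding site. Promoter stretches outside annotated exons are shown for the strongest faller of each subunit (MRPL17 and MRPS34) and for the risers MRPS31 and MRPS10, since the same motifs stood in both kinds. Each is written 5′ to 3′ on the gene's strand with motif matches in capitals, at chr11:6683402-6683590 (MRPL17), chr16:1773156-1773206 (MRPS34), chr13:40771191-40771440 (MRPS31) and chr6:42217866-42218111 (MRPS10), all on the minus strand.
MRPL17: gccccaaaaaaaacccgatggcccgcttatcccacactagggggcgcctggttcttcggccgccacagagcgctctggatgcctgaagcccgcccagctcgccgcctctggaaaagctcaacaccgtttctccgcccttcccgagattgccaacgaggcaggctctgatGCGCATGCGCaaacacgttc
MRPS34: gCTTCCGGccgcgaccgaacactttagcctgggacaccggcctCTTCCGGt
MRPS31: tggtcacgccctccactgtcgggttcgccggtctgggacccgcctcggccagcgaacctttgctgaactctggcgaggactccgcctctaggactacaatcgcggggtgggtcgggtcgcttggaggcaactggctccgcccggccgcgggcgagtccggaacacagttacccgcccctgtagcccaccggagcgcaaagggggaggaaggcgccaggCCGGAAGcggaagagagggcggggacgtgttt
MRPS10: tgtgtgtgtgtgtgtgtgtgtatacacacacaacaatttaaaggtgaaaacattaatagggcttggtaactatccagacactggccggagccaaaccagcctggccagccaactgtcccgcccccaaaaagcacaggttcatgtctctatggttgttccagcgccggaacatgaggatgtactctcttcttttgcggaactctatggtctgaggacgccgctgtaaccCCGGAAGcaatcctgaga
The NRF1 match of MRPL17 starts 81 bases before the start of transcription, and the ETS matches of MRPS31 and MRPS10 start 32 and 22 bases before it. MRPS34 holds 3 ETS matches, at 71, 29 and 19 bases before its start, of which the last lies in an annotated exon and is not shown.

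Mitoribosomal proteins that carry other symbols followed both directions as well. Of 5 with a row 4 fell and 1 rose (49.1% and 46.2% of all tested rows). MRP63 fell by 0.59 and PTCD3, of the small subunit, by 0.33 on the log2 scale. AURKAIP1 gave -0.48 (adjusted p = 0.0115), or -0.38 without DMSO replicate 3, where it did not pass (adjusted p = 0.0611), and it stood at -0.14 under quantile normalization and passed (adjusted p = 0.0353). CHCHD1 gave -0.34, or -0.22 without AI-10-49 replicate 2. ICT1, the peptidyl-tRNA hydrolase of the large subunit that rescues stalled particles, rose to 52.2 ± 10.1 FPKM with AI-10-49, against 30.7 ± 1.56 FPKM with DMSO (SD, n = 3 each; log2 fold change 0.73 ± 0.12 SE).

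Genes for building the particle fell in 10 and rose in 2 of 12 (49.1% and 46.2% of all tested rows), with a median log2 fold change of -0.33. RBFA, which matures the small subunit, stood at 8.30 ± 0.61 FPKM with AI-10-49 and 19.3 ± 1.15 FPKM with DMSO (log2 fold change -1.13). The rRNA methyltransferase gene MRM1 (-0.78) and the pseudouridine synthase gene TRUB2 (-0.77) fell, and so did MALSU1 (-0.33), the assembly factor that MRPL14 binds. The risers were GTPBP10 (0.87), a GTPase of large subunit assembly, and METTL15 (0.60), which methylates the rRNA of the small subunit. Of 10 genes for mitochondrial transcription, RNA processing or DNA replication 9 fell and MTERF rose (0.36). Those that fell include ELAC2 (-0.91), RG9MTD1 (-0.70) and TFB2M (-0.61). They also include the replication genes C10orf2 (-1.56), the replicative helicase, and POLG2 (-0.28). The median of the 10 genes was -0.54.

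Of 10 genes for translation factors and related proteins 5 were lower and 5 higher, near the shares of all tested rows (49.1% and 46.2%). Their median was 0.036 (0.012 without AI-10-49 replicate 2, and 0.079 under quantile normalization). SLIRP (-0.72) and the elongation factor genes TUFM (-0.64), TSFM (-0.51) and GFM1 (-0.43) fell, while GUF1 (0.69), the recycling factor gene MRRF (0.67) and QRSL1 (0.66) rose. Without DMSO replicate 3, 3 genes of this list were lower, and without AI-10-49 replicate 2 SLIRP stood at -0.37 and TUFM at -0.39. Under quantile normalization TUFM passed at -0.22, and SLIRP did not pass (-0.25, adjusted p = 0.0521). SLIRP did not pass without DMSO replicate 1, 2 or 3 (-0.71, -0.79 and -0.66, adjusted p = 0.0801, 0.0543 and 0.0995). Mitochondrial tRNA synthetases had 6 lower and 6 higher of 12 rows for 11 genes, also near the shares over all tested rows. They were led by MARS2 (-1.37) and WARS2 (0.58 and 0.90 on its 2 rows), with CARS2 at -0.67.

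Subunits of the respiratory chain and the ATP synthase fell in 25, rose in 1 and did not pass in 24 of 50 rows (median -0.66). Over all tested rows 49.1% fell and 46.2% rose. Without AI-10-49 replicate 2, 38 fell and 3 rose (median -0.34), and without DMSO replicate 3, 15 fell. Under quantile normalization 26 fell and 7 rose (median -0.19). ATP5G1 (-1.38), NDUFA3 (-1.10) and NDUFB2 (-0.95) fell, as did NDUFA1 (-1.04), which was at -0.59 without AI-10-49 replicate 2 and did not pass without DMSO replicate 3 (-0.93, adjusted p = 0.0759). Quantile normalization gave NDUFA3 -0.74, NDUFB2 -0.53 and NDUFA1 -0.55, all past the threshold. Import genes fell in 12 and rose in 1 of 14 (median -0.70), with TOMM5 at -1.56, TOMM40 at -1.10, TIMM8A at -0.97 and TIMM8B at -0.81 (-0.49 under quantile normalization). TIMM44, of the inner membrane motor, was the riser (0.68). Of 10 rows for cytosolic ribosomal proteins, which include pseudogenes, 3 fell, 2 rose and 5 did not pass, and without DMSO replicate 1, 5 fell. Those past the threshold, other than RPL39L (0.58), were RPL32P3 (0.57), RPL7L1 (-0.55, or -0.18 under quantile normalization), RPL23AP7 (-0.48) and RPL23AP53 (-0.37), which are pseudogenes or a relative of a ribosomal protein gene. Among 4 regulators of mitochondrial biogenesis MYC (-3.16), PPRC1 (-1.69) and PPARGC1B (-1.52) fell, and GABPA, the DNA-binding subunit of GABP, rose (0.54). Whether the mitoribosomal genes differed from any of these lists was not tested.

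**Figure D4:**
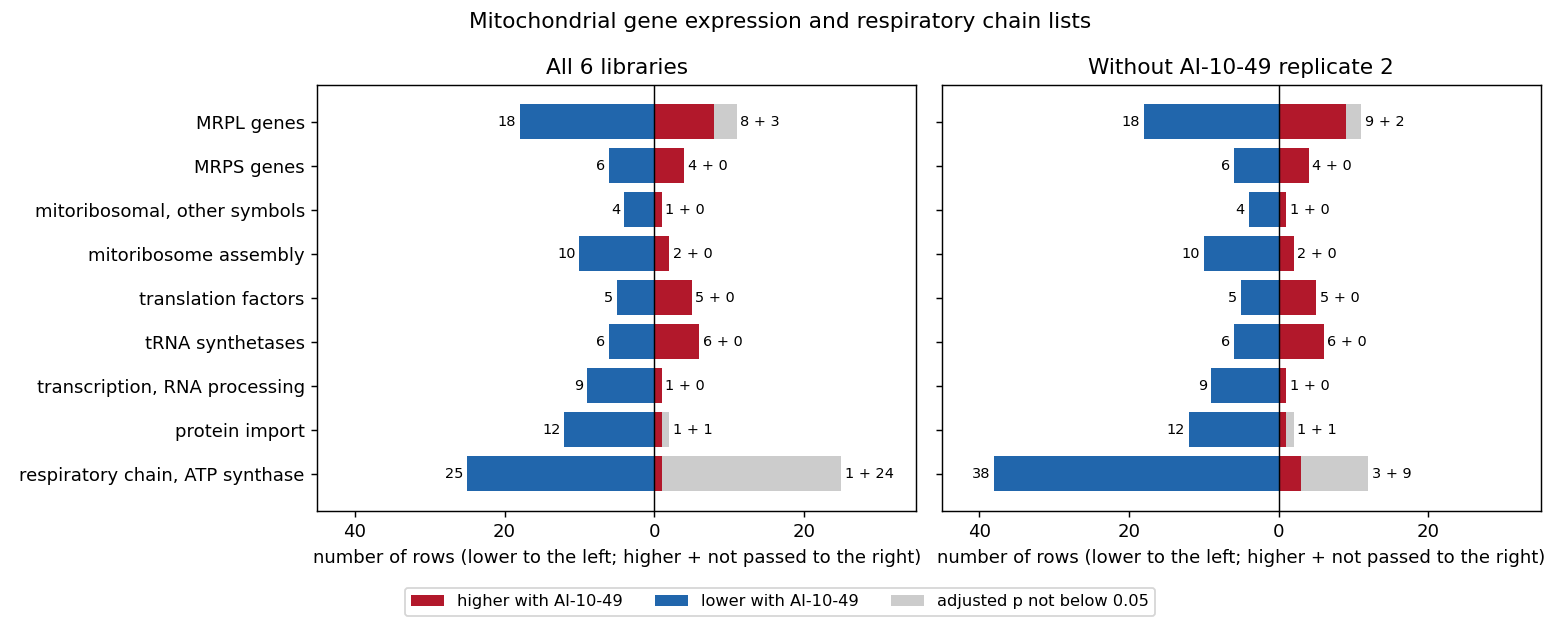
Bars count the rows that fell with AI-10-49 (blue, leftwards), rose (red, rightwards) or did not pass the adjusted p of 0.05 (grey, after the red), for MRPL and MRPS genes and related lists, with all 6 libraries (left) and without AI-10-49 replicate 2 (right). MRPL genes hold 18 lower and 8 higher, and the respiratory chain list goes to 38 lower without replicate 2, against 25 with it.

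RefSeq names at least 1 pseudogene after 17 of the 39 genes, with 6 for MRPS17 and 3 each for MRPS10 and MRPS31. Reads shared with such copies, or with genes that overlap on either strand, could change a gene's value, and their part was not tested.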

How the data were processed

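ME-1 libraries (TruSeq RNA kit, 90 bp paired-end reads, 3 per treatment) came from independent experiments per the labels. Tools listed by the submitters' processing notes were Cuffdiff, Cufflinks 2.2.0 and Bowtie2 2.1.0, with hg19 as build. The authors' deposited table holds FPKM for 6339 rows and 6 libraries; columns headed control were matched to DMSO and treated to AI-10-49, and the sources used here do not give how rows were selected. FPKM are not counts, and library depth is unknown. In 64 low rows, 9.38% to 14.1% of ratios between DMSO libraries lay within 0.5% of a ratio of small whole numbers. Library scaling also enters these ratios and no share for comparison was computed, so they do not tell the depth.

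Values were analysed as log2(FPKM + 1) with limma 3.58.1 in R 4.3.3 (mean-variance trend, two-sided, all 6 libraries, no block). Rows were tested if either group averaged 1 FPKM or more (6230 rows), with Benjamini-Hochberg adjustment over all of them. Fold changes on this scale understate those of low genes. The fit was also run on simulated data with equal noise in every row and few changed rows. Nearly all rows of the deposited table differ, so that run does not tell how the fit does here. Alternatives were leaving each library out, quantile normalization (also without AI-10-49 replicate 2), scaling to the median, a block for the replicate number, pseudocounts of 0.5 and 0.1, a 5 FPKM filter or none, no trend, and 0.01 as threshold.

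Members, lists and motifs were chosen with earlier results of these data known. Values per library are given for the 8 members of largest change, all that rose, those that did not pass and the 3 most abundant. Up to 4 genes of largest change past the threshold are named from each list, and the others named there (MALSU1, METTL15, PTCD3, MTERF, TUFM, TSFM, GFM1, RPL23AP53 and TIMM44), like MRPL11's values per library and the printed promoters of MRPS34 and MRPS10, were chosen after their values were seen. Tables and plots used Python 3.11.15, pandas 2.3.3, NumPy 2.4.6 and Matplotlib 3.10.9.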

Additional observations from a re-analysis of the deposited data

How the results depend on the processing

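Leaving out single libraries gave 32 to 37 mitoribosomal genes past the threshold, and the other alternatives 32 to 38, against 36 as reported (21 to 25 lower and 11 to 14 higher). The small subunit gave 6 lower and 4 higher throughout. The members' median log2 fold change ranged from -0.57 to -0.20. Of 585 values for the 39 genes, 552 kept direction and side of the threshold, 21 lost the call, 7 gained it and 5 reversed. Those were MRPL48 (0.020 under quantile normalization, and 0.018 without AI-10-49 replicate 2 as well), MRPL33 (0.078 under quantile normalization without that replicate) and MRPL3 (0.14, and 0.11 without that replicate). The cause was not tested. At a threshold of 0.01, 2 mitoribosomal proteins with other symbols, 2 genes of the translation factor list and 14 respiratory chain subunits were lower. With single libraries left out, 3 to 5 genes of the translation factor list and 3 to 5 cytosolic ribosomal rows were lower. Of the respiratory chain subunits 15 to 38 were then lower and 1 to 3 higher. Under quantile normalization 7 respiratory chain subunits were higher, and without AI-10-49 replicate 2 as well 13, with 2 import genes higher. A filter at 5 FPKM left 1 cytosolic ribosomal row higher, since fewer rows were tested. With the replicate number as a block, 25 mitoribosomal genes were lower and 13 higher (MRPL33 and MRPL45 passed), 6 cytosolic ribosomal rows were lower, and no other list moved by over 1.5 times. Deviations of same-numbered libraries correlated at r = -0.15, 0.147 and 0.247 across genes, and those of different-numbered libraries at -0.254 to 0.205. These ranges overlap and do not settle pairing. The numbers were not taken as pairs. Depth is unknown, and precision rests on the spread between libraries.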

Other observations

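The deposited table also holds 3 rows that join a mitoribosomal symbol to a neighbouring gene, so their values cannot be assigned to either. The row for HGS and MRPL12 had 94.8, 73.0 and 91.7 FPKM with AI-10-49, against 153, 165 and 179 FPKM with DMSO (log2 fold change -0.94 ± 0.24 SE, limma adjusted p = 0.0022). The row for GNRH2 and MRPS26 had 42.6, 37.9 and 45.8 FPKM with AI-10-49, against 107, 102 and 118 FPKM with DMSO (-1.36 ± 0.13 SE). The row for C17orf57 and MRPL45P2, a pseudogene, had 12.3, 9.56 and 13.1 FPKM with AI-10-49, against 5.34, 6.66 and 3.80 FPKM with DMSO (1.03 ± 0.15 SE). In each row the AI-10-49 libraries lay apart from the DMSO libraries.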
